A study of Homo sapiens with 18 samples.

Results

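The genes that build heparan sulfate and carry it to the cell surface were read out in human embryonic stem cells edited at ZNF263, a zinc finger transcription factor. They are 41 of the 27130 gene symbols in the deposited count tables, chosen by symbol for their known step in the pathway. Of these, 6 make the linker, 5 build the chain, 15 sulfate or epimerise it, 3 edit it afterwards and 12 are core proteins. Polyadenylated RNA was sequenced in 18 libraries of 8 groups, taken from H1 and H9, which are established lines. The replicated groups had 3 libraries each: H1 wild type, clone 1-10 of H1 with a homozygous ZNF263 knockout, H9 wild type, and clones 9-1 and 9-D of H9, both homozygous knockouts too. A separate H1 set had 1 library each of wild type, the heterozygous knockout clone 1-5 and clone 1-10. The study was set up to learn the role of ZNF263 in pluripotency. Each knockout group is 1 clone made with Cas9, so effects of the clone and of the knockout cannot be told apart. The edited part of ZNF263 is not given, and the labels do not tell whether the libraries of a group came from separate cultures, so p-values measure only the spread between these libraries.

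Heparan sulfate is a long sugar chain attached to a few core proteins, the heparan sulfate proteoglycans. Enzymes of the Golgi build a short linker on a serine of the core protein, polymerise the chain from it, and then epimerise and sulfate stretches of it. The sulfation pattern decides which growth factors the chain holds, among them FGFs, WNTs and BMPs, which embryonic stem cells depend on to stay pluripotent or to differentiate. Glypicans are tethered to the membrane by a lipid anchor, syndecans span the membrane, and agrin and perlecan lie in the basement membrane.

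Library totals of the replicated groups ran from 9.66 to 21 M counts, and those of the single libraries from 11.1 to 13.4 M. Levels are given as CPM (counts per M counts of the library) on library sizes scaled by the trimmed mean of M values (TMM) within each table. ZNF263 RNA stood at 40.6 ± 1.22 CPM in H1 wild type and 33.9 ± 1.98 in clone 1-10, and at 42.3 ± 2.27 in H9 wild type, 35.96 ± 1.49 in 9-1 and 36.1 ± 1.42 in 9-D (SD, n = 3 each). The targeted gene was therefore lower in all 3 knockout groups, with most of its RNA still present. In the single H1 libraries it was at 39.3 CPM in wild type, 31.7 in the heterozygous clone 1-5 and 33.3 in clone 1-10. All 9 pluripotency markers checked were detected in every library, and their summed level was higher in the knockouts: 8690.0 to 9083 CPM against 9685 to 9930.4 in H1, and 7354 to 7574 against 8691 to 9017 in H9. By gene, 3 of the 9 were higher at an edgeR adjusted p under 0.05 in H1, where 5.01% of all genes were. In H9, with both clones in 1 group, 8 were, against 14.3% of all genes. The log2 fold change of 1 marker was negative in H1.

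Core proteins were the step with the largest share of called genes in both lines. In H1, 12 of the 39 members tested passed an adjusted p of 0.05 in the quasi-likelihood test of edgeR (Benjamini-Hochberg adjustment), 11 lower and 1 higher in clone 1-10. That is 30.8% against 12.3% of the 14897 genes tested, of which 7.25% were lower and 5.01% higher. The median log2 fold change was -0.11 over the members and 0.00 over all genes. In H9, with both clones in 1 group, 21 of 39 passed, 17 lower and 4 higher, or 53.8% against 29.7% of 15411 genes (15.3% lower, 14.3% higher), with medians of -0.10 and -0.00. Clone 9-1 alone had 18 calls, 16 lower and 2 higher, with 26.3% of all genes called (13.5% lower, 12.7% higher). Clone 9-D had 19, 16 lower and 3 higher, with 23.5% of all genes called (12% lower, 11.5% higher). Without TMM scaling, the calls over all genes moved from 747 higher and 1080 lower to 437 and 1376 in H1, and from 2211 higher and 2361 lower to 1546 and 3012 in H9. The core proteins gave 9 calls of 11 tested in H1 (8 lower, 1 higher), and 9 of 11 in H9, all lower. The other 4 steps together gave 3 calls of 28 in H1 (10.7%), near the share of all genes, and 12 of 28 in H9 (42.9%). Mean levels of the tested core genes in H1 wild type ran from 32.2 (GPC6) to 474 CPM (GPC4). In the sulfation step, NDST3, HS3ST1 and HS6ST3 stood at 0.887, 1.98 and 3.38 CPM. Smaller changes can pass at higher counts, so the shares of the steps do not compare like with like. The chain polymerases gave 0 of 5 in H1, where 0 of 5 had an unadjusted p under 0.05, and 1 of 5 in H9. In bulk RNA, fewer cells of a type and less RNA per cell cannot be told apart. NDST4 and GPC5 fell below the filter on low counts in each comparison, with 27 and 53 counts in all over the 15 replicated libraries. Exons of XYLT1, XYLT2, EXTL2, EXTL3, SULF2, GPC6 and HSPG2 overlap a gene on the other strand, and B3GAT3, FAM20B, EXTL2 and HS6ST1 have a pseudogene copy. Exons of NDST2, HS2ST1 and AGRN overlap a gene on the same strand. The counting strand is not given in the sources used here. Reads at all of these genes are therefore less certain.

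**Figure D1:**
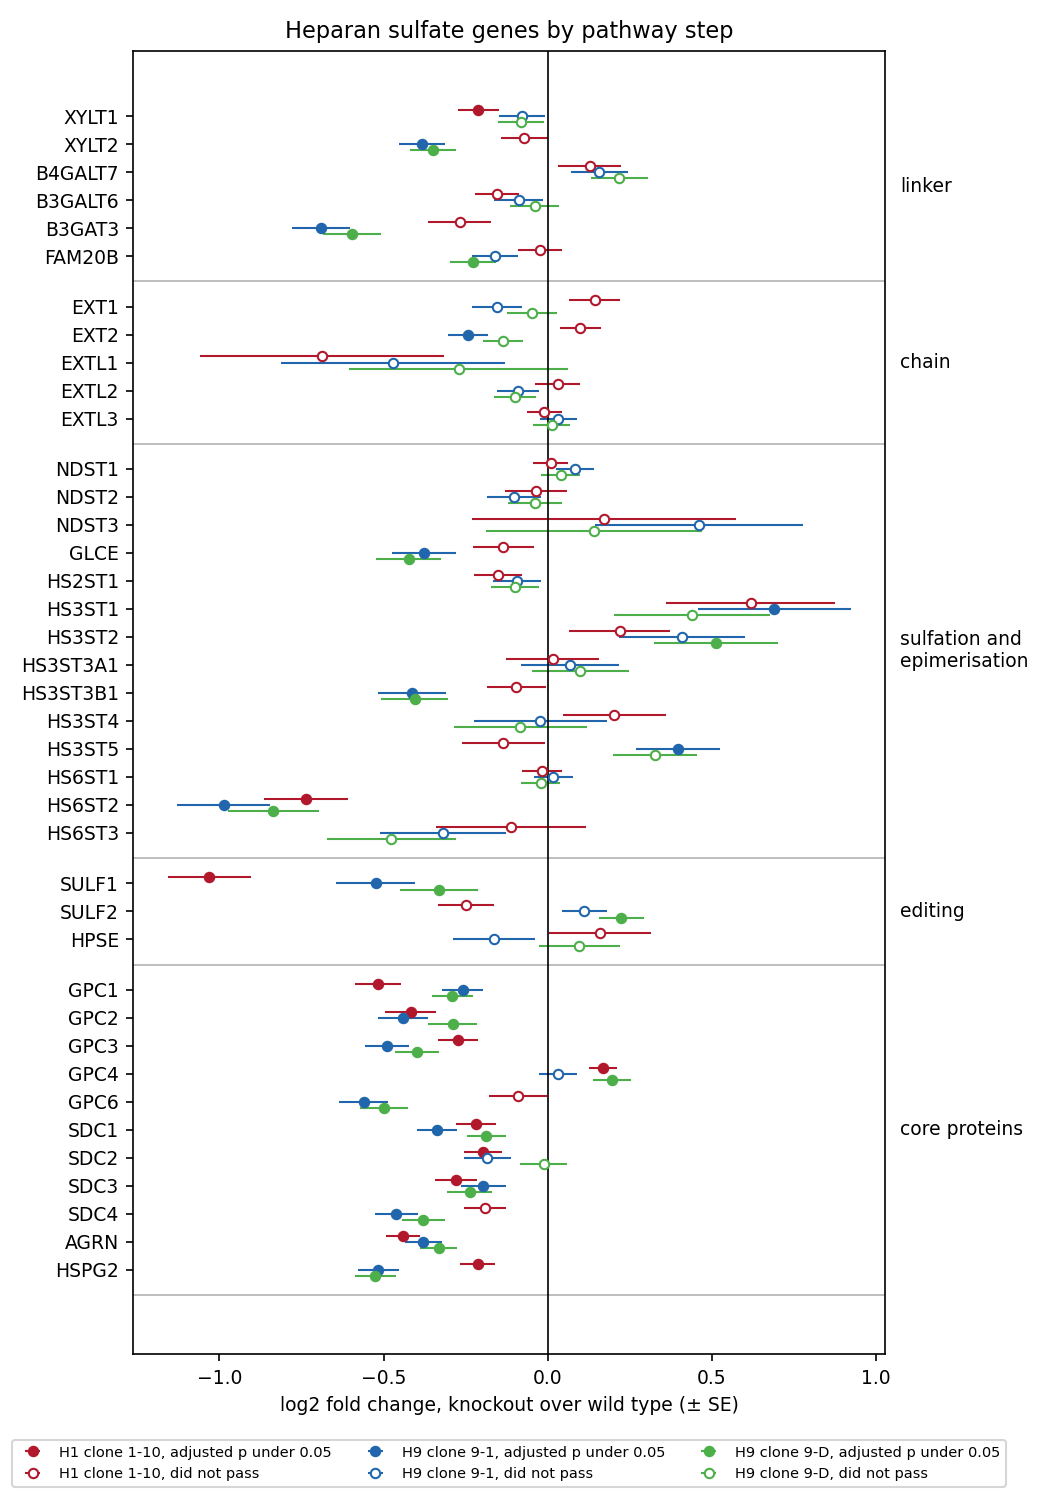
Knockout against wild type as log2 fold change (x axis, ± SE) for the 39 members tested (y axis), grouped by pathway step, in H1 clone 1-10 (red), H9 clone 9-1 (blue) and H9 clone 9-D (green). Filled points passed an adjusted p of 0.05 and open points did not; 10 of the 11 core proteins lie left of 0 in each clone, and GPC4 lies to the right.

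Of the 39 members tested in both lines, 9 were lower in both (AGRN, HSPG2, GPC1, GPC2, GPC3, SDC1, SDC3, HS6ST2 and SULF1), 0 were higher in both and 0 were called in opposite directions. These 9 are 75% of the H1 calls and 42.9% of the H9 calls, and 23.1% of the members tested. Over all genes tested in both lines the same shares were 50.8%, 20.5% and 6.19%. The lines share no libraries.

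ZNF263 binds a G-rich DNA motif, so the promoters of the called members were searched for the letters GGGAGGA, a run within that motif, and for TCCTCCC on the other strand. Such G-rich runs also occur in the motifs of other zinc finger proteins. The windows are RefSeq's (GRCh38.p14), 250 bases before to 50 after each start, and the stretches below show where the called members, and HS3ST3A1, which was not called, hold the letters, which are in capitals, 5′ to 3′ on the strand of the gene.
HSPG2, chr1:21937311-21937560, minus strand, the 250 bases before the start: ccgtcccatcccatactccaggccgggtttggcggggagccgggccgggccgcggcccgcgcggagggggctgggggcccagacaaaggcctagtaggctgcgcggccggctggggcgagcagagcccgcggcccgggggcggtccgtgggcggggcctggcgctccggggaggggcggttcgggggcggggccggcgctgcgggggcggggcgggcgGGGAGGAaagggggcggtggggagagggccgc
XYLT1, chr16:17471009-17471038, minus strand: tcctttTCCTCCCtcggcTCCTCCCccagg
EXT2, chr11:44096217-44096246, plus strand: cccgccagccacagggatctgatTCCTCCC
GPC4, chrX:133415704-133415733, minus strand: tccgaggaggagGGGAGGAaggaggagccg
HS3ST1, chr4:11428929-11428958, minus strand: ccgctccTCCTCCCgcTCCTCCCcctcctc
HS3ST5, chr6:114343150-114343179, minus strand: ccaccctcctccTCCTCCCtttcgctgcgg
HS3ST5, chr6:114343081-114343110, minus strand: aggaggagcacgGGGAGGAggggaaggcga
SULF2, chr20:47786646-47786675, minus strand: cttgagtccaatTCCTCCCctttcggagga
SULF2, chr20:47785508-47785537, minus strand: cgttggggggcgGGGAGGAggcaggaggag
HS3ST3A1, chr17:13602147-13602176, minus strand: ggcgaagccgcgGGGAGGAatgggggacac

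The letters were found in a window of 13 of the 35 members with one, while 18.1% of all 35116 windows and 21.1% of the 27305 genes in the table hold them. Among members with a window, they were found in 2 of 7 that were lower in H1 (XYLT1 and HSPG2) and in the 1 that was higher (GPC4). In H9 they were found in 2 of 14 that were lower (EXT2 and HSPG2) and in 3 of 4 that were higher (HS3ST1, HS3ST5 and SULF2). A match describes the letters and is not a binding site, and these counts are too small to compare. AGRN, EXT1, EXTL3, GPC3, SDC2 and SULF1 had no window in the table.

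Linker enzymes gave 1 call of 6 in H1, near the 12.3% of all genes, and 3 of 6 in H9, where 29.7% of all genes were called. All of these were lower. XYLT1 and XYLT2 are the xylosyltransferases that start the linker. XYLT1 stood at 78.7, 80.4 and 73.4 CPM in H1 wild type and 68.5, 67.2 and 64.9 in clone 1-10. The H9 libraries had 67.9, 68.5 and 72.8 in wild type, 62.3, 68.3 and 67.3 in 9-1 and 74.1, 62.05 and 61.4 in 9-D. All 3 knockout libraries of H1 were below wild type, and the H9 groups overlapped. The log2 fold change of XYLT1 was -0.21 (SE 0.062, edgeR adjusted p = 0.0222) in H1 and -0.08 (SE 0.06, edgeR adjusted p = 0.343) in H9. The H1 call was lost without clone 1-10 replicate 1 or 3 or wild-type replicate 1 or 2 (edgeR adjusted p = 0.0523, 0.0881, 0.0811 and 0.0902). XYLT2 stood at 44.9, 45.8 and 46.8 CPM in H1 wild type and 42.3, 46.3 and 41.7 in clone 1-10. H9 wild type had 69.4, 61.9 and 66.6, clone 9-1 had 49.6, 48.4 and 54.1 and clone 9-D 47.8, 52.2 and 55.5. The H9 knockouts were all below wild type, and the H1 groups overlapped. XYLT2 had a log2 fold change of -0.37 (SE 0.06, edgeR adjusted p = 1.82e-05) in H9 and -0.07 (SE 0.071, edgeR adjusted p = 0.572) in H1.

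B3GAT3, which adds the glucuronic acid that completes the linker, was the most reduced linker enzyme in H9. B3GAT3 stood at 24.04, 21.4 and 23.9 CPM in H1 wild type and 18.7, 20.9 and 17.4 in clone 1-10. Levels in H9 were 39.03, 42.1 and 34.5 in wild type, 25.1, 22.4 and 24.2 in 9-1 and 23.5, 24.01 and 28.8 in 9-D. Every knockout library of either line was below its wild type. The log2 fold change was -0.64 (SE 0.076, edgeR adjusted p = 7.97e-08) in H9, a fall to 0.640 of wild type, and -0.27 (SE 0.095, edgeR adjusted p = 0.0617) in H1, where it did not pass. It passed in H1 without clone 1-10 replicate 2 (edgeR adjusted p = 0.0223) or wild-type replicate 2 (0.0406). FAM20B phosphorylates the xylose of the linker. FAM20B stood at 62.2, 61.5 and 55.2 CPM in H1 wild type and 59.2, 57.1 and 59.9 in clone 1-10. Wild-type H9 libraries gave 61.00, 71.8 and 62.8, those of 9-1 gave 55.9, 60.01 and 58.9 and those of 9-D 58.2, 56.8 and 51.9. The H9 knockouts were below wild type by a narrow margin, and the H1 groups overlapped. FAM20B had a log2 fold change of -0.19 (SE 0.061, edgeR adjusted p = 0.0155) in H9, which was lost without H9 wild-type replicate 2 (edgeR adjusted p = 0.179), and -0.02 in H1. Taken clone by clone, FAM20B passed in 9-D and not in 9-1. The galactosyltransferases B4GALT7 and B3GALT6 had log2 fold changes of 0.13 and -0.15 in H1 and 0.19 and -0.06 in H9 and were not called. Summed over the 6 linker genes, the level was 274 to 285 CPM in H1 wild type and 251 to 266 in clone 1-10, and 308 to 319 in H9 wild type against 262 to 277 in 9-1 and 265 to 278 in 9-D.

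Of the RNAs of chain polymerisation, only EXT2 was called, in H9. EXT1 and EXT2 form the polymerase, and EXTL1, EXTL2 and EXTL3 are related transferases, of which EXTL3 starts the chain. EXT2 stood at 62.2, 63.3 and 62.4 CPM in H1 wild type and 68.2, 68.6 and 64.1 in clone 1-10. In H9 it stood at 131, 146 and 146 in wild type, 116, 126 and 115 in 9-1 and 132, 127 and 126 in 9-D. The 9-1 libraries were all below H9 wild type, the highest 9-D library was just above the lowest wild-type one, and the H1 knockouts were slightly above wild type. EXT2 had a log2 fold change of -0.19 (SE 0.054, edgeR adjusted p = 0.00765) in H9, lost without H9 wild-type replicate 3 (edgeR adjusted p = 0.0584), and 0.10 (SE 0.063, edgeR adjusted p = 0.321) in H1. When each H9 clone was tested, EXT2 passed in 9-1 and not in 9-D. EXTL3, at 181 to 189 CPM in H1 wild type, had log2 fold changes of -0.01 in H1 and 0.02 in H9. EXT1 and EXTL2 had log2 fold changes of 0.14 and 0.03 in H1 and -0.10 and -0.10 in H9. EXTL1 was close to the limit of detection, at 0.791 to 1.61 CPM in H1 wild type, and its log2 fold change of -0.69 in H1 had an SE of 0.37. Summed over the 5 genes, the level was 353 to 361 CPM in H1 wild type and 355 to 378 in clone 1-10, which overlap. In H9 it was 482 to 497 in wild type and 452 to 469 in 9-1, all lower, while 9-D, at 460 to 482, overlapped wild type by a narrow margin.

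HS6ST2, a sulfotransferase that places 6-O-sulfate groups, had the largest fall among the tested genes of the sulfation step in both lines. HS6ST2 stood at 11.98, 11.7 and 13.8 CPM in H1 wild type and 8.19, 6.92 and 7.34 in clone 1-10. The H9 libraries had 13.5, 12.8 and 10.4 in wild type, 5.13, 6.35 and 6.95 in 9-1 and 6.85, 5.52 and 8.07 in 9-D. Each of the 9 knockout libraries was below every wild-type library of its line. The log2 fold change was -0.74 (SE 0.13, edgeR adjusted p = 0.000137) in H1 and -0.91 (SE 0.12, edgeR adjusted p = 6.91e-07) in H9, with -0.99 in 9-1 and -0.84 in 9-D, which share the wild type. HS6ST1, the abundant enzyme of the same reaction, had log2 fold changes of -0.02 in H1 (SE 0.062) and -0.00 in H9 (SE 0.051). Per kilobase of exon, HS6ST2 made up 7.80% of the summed level of the 3 HS6ST genes in H1 wild type and 4.93% in clone 1-10, and 8.08% in H9 wild type, 4.18% in 9-1 and 4.73% in 9-D. HS6ST1 made up the bulk, at 91.0% in H1 wild type and 93.9% in clone 1-10. The summed level of the 3 genes was 33.7 to 35.7 CPM per kilobase in H1 wild type and 29.8 to 35.5 in clone 1-10, which overlap.

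GLCE, the epimerase that turns glucuronic into iduronic acid, fell in H9. GLCE stood at 27.3, 23.1 and 27.1 CPM in H1 wild type and 25.95, 22.2 and 22.02 in clone 1-10. H9 wild type had 27.9, 26.8 and 25.6, clone 9-1 had 18.7, 24.1 and 18.3 and clone 9-D 19.4, 22.2 and 18.4. The H9 knockouts were all below wild type, and the H1 groups overlapped. GLCE had a log2 fold change of -0.40 (SE 0.084, edgeR adjusted p = 0.000472) in H9 and -0.13 (SE 0.093, edgeR adjusted p = 0.38) in H1. The N-sulfation enzymes NDST1 and NDST2 and the 2-O-sulfotransferase HS2ST1 were not called in either line, with log2 fold changes of 0.01, -0.04 and -0.15 in H1 and 0.06, -0.07 and -0.10 in H9. NDST3 was barely detected, at 0.710 to 1.15 CPM in H1 wild type.

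The 3-O-sulfotransferases, which place the rare sulfate group needed for antithrombin binding and for some receptor contacts, moved in both directions in H9 and gave no call in H1. HS3ST3B1 stood at 22.2, 22.8 and 23.02 CPM in H1 wild type and 21.1, 22.2 and 20.1 in clone 1-10. Levels in H9 were 18.9, 17.3 and 17.4 in wild type, 11.7, 14.6 and 13.6 in 9-1 and 12.4, 14.3 and 13.8 in 9-D. The H9 knockouts were all below wild type. HS3ST3B1 had a log2 fold change of -0.41 (SE 0.087, edgeR adjusted p = 0.000528) in H9 and -0.09 (SE 0.09, edgeR adjusted p = 0.543) in H1. HS3ST3A1 stood at 9.42, 7.10 and 7.34 CPM in H1 wild type and 8.12, 7.67 and 8.28 in clone 1-10. Wild-type H9 libraries gave 6.16, 7.82 and 8.27, those of 9-1 gave 6.32, 7.59 and 9.43 and those of 9-D 8.43, 6.73 and 8.56. The groups overlapped in both lines. HS3ST3A1 had a log2 fold change of 0.02 (SE 0.14, edgeR adjusted p = 0.96) in H1 and 0.08 (SE 0.13, edgeR adjusted p = 0.674) in H9, and in H9 it turned to -0.04 without wild-type replicate 1. HS3ST3A1 and HS3ST3B1 share a nearly identical sulfotransferase domain, so reads between them are uncertain.

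HS3ST1, the enzyme of the antithrombin-binding site, was one of the least abundant members detected. HS3ST1 stood at 1.28, 2.52 and 2.16 CPM in H1 wild type and 3.87, 2.77 and 2.52 in clone 1-10. In H9 it stood at 2.14, 1.59 and 1.91 in wild type, 3.27, 3.10 and 2.76 in 9-1 and 2.09, 3.05 and 2.61 in 9-D. The 9-1 libraries were all above wild type, while 9-D overlapped it and the H1 groups overlapped by a narrow margin. HS3ST1 had a log2 fold change of 0.57 (SE 0.21, edgeR adjusted p = 0.0366) in H9 and 0.62 (SE 0.26, edgeR adjusted p = 0.114) in H1, from 16 to 39 counts a library in H1 wild type. With the H9 clones tested apart, HS3ST1 passed in 9-1 and not in 9-D. The H9 call was lost in DESeq2 (adjusted p = 0.0653) and without H9 wild-type replicate 2 or 3, clone 9-1 replicate 1 or 2 or clone 9-D replicate 2 (edgeR adjusted p from 0.0534 to 0.15), and HS3ST1 passed in H1 without both libraries numbered 2 (0.93, edgeR adjusted p = 0.0355). HS3ST2 stood at 5.99, 5.55 and 5.47 CPM in H1 wild type and 6.66, 7.10 and 5.77 in clone 1-10. The H9 libraries had 3.70, 4.57 and 2.71 in wild type, 5.21, 4.77 and 4.54 in 9-1 and 4.19, 6.09 and 5.40 in 9-D. The H9 groups overlapped. HS3ST2 had a log2 fold change of 0.46 (SE 0.17, edgeR adjusted p = 0.0365) in H9 and 0.22 (SE 0.15, edgeR adjusted p = 0.384) in H1. By single clone, HS3ST2 passed in 9-D and not in 9-1. Its H9 call was lost in DESeq2 (adjusted p = 0.0557) and without H9 wild-type replicate 1 or 3, clone 9-1 replicate 1 or clone 9-D replicate 2 or 3 (edgeR adjusted p from 0.0508 to 0.29).

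HS3ST5 stood at 10.6, 10.2 and 12.2 CPM in H1 wild type and 11.3, 9.23 and 9.44 in clone 1-10. H9 wild type had 7.84, 7.68 and 7.83, clone 9-1 had 8.997, 10.8 and 10.8 and clone 9-D 8.71, 11.2 and 9.59. The H9 knockouts were all above wild type, and the H1 groups overlapped. HS3ST5 had a log2 fold change of 0.36 (SE 0.11, edgeR adjusted p = 0.0129) in H9 and -0.13 (SE 0.13, edgeR adjusted p = 0.54) in H1. Tested by clone, HS3ST5 passed in 9-1 and not in 9-D, and 2 runs that left out 1 library lost the 9-1 call. HS3ST4 and HS6ST3 were not called, with log2 fold changes of 0.20 and -0.11 in H1 and -0.05 and -0.40 in H9. Over all 15 genes of the step, the summed level overlapped between knockout and wild type in H9, at 467 to 505 CPM in wild type, 464 to 493 in 9-1 and 467 to 475 in 9-D. In H1 it was 485 to 495 CPM in wild type and 455 to 491 in clone 1-10.

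SULF1 and SULF2 are secreted sulfatases that remove 6-O-sulfate groups from finished chains, the modification HS6ST enzymes place. SULF1 had the largest fall among the 39 members tested in H1. SULF1 stood at 14.6, 13.6 and 15.9 CPM in H1 wild type and 7.04, 6.52 and 8.39 in clone 1-10. Levels in H9 were 17.1, 14.7 and 16.3 in wild type, 9.29, 12.8 and 10.99 in 9-1 and 10.8, 15.2 and 12.6 in 9-D. The knockouts were all below wild type in H1 and in 9-1, and 1 library of 9-D lay above the lowest wild-type one. SULF1 had a log2 fold change of -1.03 (SE 0.13, edgeR adjusted p = 5.1e-07) in H1, a fall to 0.489 of wild type, and -0.42 (SE 0.11, edgeR adjusted p = 0.00283) in H9. The call of 9-D alone (edgeR adjusted p = 0.038) was lost in DESeq2 (adjusted p = 0.109) and without 9-D replicate 1 or 3 or H9 wild-type replicate 1 or 3 (edgeR adjusted p from 0.0929 to 0.252). In H1, 8 primitive streak and mesendoderm markers summed to 31.4 to 33.9 CPM in wild type and 8.77 to 19.2 in clone 1-10, and 10 neuroectoderm markers to 42.1 to 48.3 and 30.3 to 33.6. In H9 the streak markers overlapped, at 10.98 to 21.9 CPM in wild type, 10.9 to 48.6 in 9-1 and 11.2 to 27.6 in 9-D, while the neuroectoderm markers summed to 11.6 to 13.8, 7.54 to 10.2 and 7.53 to 8.15. The part of these markers' cells in the SULF1 result was not tested.

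SULF2 stood at 31.6, 34.4 and 31.5 CPM in H1 wild type and 26.3, 30.2 and 24.9 in clone 1-10. Wild-type H9 libraries gave 66.4, 59.8 and 72.1, those of 9-1 gave 67.3, 74.2 and 72.8 and those of 9-D 79.7, 72.1 and 80.1. The H1 knockouts were below wild type, whereas in H9 9-1 overlapped wild type and 9-D reached from the highest wild-type value upward. SULF2 had a log2 fold change of -0.25 (SE 0.085, edgeR adjusted p = 0.0505) in H1, which did not pass, and 0.17 (SE 0.063, edgeR adjusted p = 0.0397) in H9. Separate tests of the H9 clones called SULF2 in 9-D and not in 9-1. The H1 value passed without clone 1-10 replicate 2 (edgeR adjusted p = 0.0083) or without both libraries numbered 2 (0.0207). The H9 call was lost without H9 wild-type replicate 1 or 2, clone 9-1 replicate 2 or 3 or clone 9-D replicate 1 or 3 (edgeR adjusted p from 0.0552 to 0.304). HPSE, the heparanase that cuts the chain, had log2 fold changes of 0.16 in H1 and -0.03 in H9 and was not called. Per kilobase, SULF1 made up 24.2 to 28.9% of the SULF1 and SULF2 level in H1 wild type and 14.8 to 21.3% in clone 1-10, and 15.4 to 17.1% in H9 wild type, 9.99 to 12.2% in 9-1 and 9.83 to 14.5% in 9-D.

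GPC4 was the most abundant member per kilobase of exon in both wild types, at 95.5 ± 0.467 CPM per kilobase in H1 and 143 ± 9.29 in H9 (SD, n = 3 each), ahead of AGRN (46.8 ± 0.217 and 89.6 ± 3.82) and GPC3 (45.3 ± 3.26 and 48.3 ± 1.41). In H1 the AGRN and GPC3 ranges overlapped, so their order is not resolved there. GPC4 was also the only tested glypican with a positive log2 fold change in each knockout clone. GPC4 stood at 476, 471 and 474 CPM in H1 wild type and 535, 526 and 536 in clone 1-10. In H9 it stood at 659.8, 728 and 748 in wild type, 690.0, 769.6 and 723 in 9-1 and 849.7, 786 and 810.4 in 9-D. The knockouts were all above wild type in H1 and in 9-D, and 9-1 overlapped wild type. GPC4 had a log2 fold change of 0.17 (SE 0.044, edgeR adjusted p = 0.00963) in H1, 0.20 (SE 0.057, edgeR adjusted p = 0.00998) in 9-D and 0.03 (SE 0.057, edgeR adjusted p = 0.73) in 9-1. With both H9 clones in 1 group it did not pass, at 0.12 (SE 0.056, edgeR adjusted p = 0.116). GPC4 lost its H1 call without wild-type replicate 3 (edgeR adjusted p = 0.053) and that of 9-D without H9 wild-type replicate 1 (0.103).

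GPC1, GPC2 and GPC3 fell in both lines. GPC1 stood at 61.3, 66.4 and 64.4 CPM in H1 wild type and 44.9, 48.00 and 40.7 in clone 1-10. The H9 libraries had 103, 92.99 and 92.3 in wild type, 77.7, 79.8 and 83.6 in 9-1 and 79.3, 77.6 and 78.9 in 9-D. No knockout library reached its wild type. GPC1 had a log2 fold change of -0.52 (SE 0.07, edgeR adjusted p = 3.06e-06) in H1 and -0.27 (SE 0.052, edgeR adjusted p = 0.000135) in H9. GPC2 stood at 38.3, 36.9 and 40.8 CPM in H1 wild type and 29.1, 29.9 and 27.4 in clone 1-10. H9 wild type had 55.5, 58.3 and 51.7, clone 9-1 had 40.3, 39.5 and 42.2 and clone 9-D 45.5, 39.5 and 49.9. Knockout and wild type did not overlap in either line. GPC2 had a log2 fold change of -0.42 (SE 0.078, edgeR adjusted p = 0.000379) in H1 and -0.36 (SE 0.069, edgeR adjusted p = 0.000131) in H9. GPC3 stood at 110.0, 127 and 121 CPM in H1 wild type and 95.8, 103 and 97.9 in clone 1-10. Levels in H9 were 125, 126 and 132 in wild type, 82.8, 101 and 87.1 in 9-1 and 92.8, 92.7 and 104 in 9-D. Here too the groups did not overlap. GPC3, which restrains hedgehog signalling in development, had a log2 fold change of -0.27 (SE 0.061, edgeR adjusted p = 0.00258) in H1 and -0.44 (SE 0.059, edgeR adjusted p = 5.72e-07) in H9. GPC3 and GPC4 are direct neighbours on chromosome X, and HS6ST2 lies beside them with 2 protein-coding genes, USP26 and TFDP3, in between. Of these 3 genes, GPC3 and HS6ST2 fell in both lines, whereas GPC4 rose in H1 and in 9-D.

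GPC6 fell in H9. GPC6 stood at 34.5, 28.9 and 33.1 CPM in H1 wild type and 29.8, 27.4 and 34.3 in clone 1-10. Wild-type H9 libraries gave 52.4, 57.4 and 58.3, those of 9-1 gave 37.03, 37.00 and 40.05 and those of 9-D 43.1, 38.5 and 37.3. The H9 knockouts were all well below wild type and the H1 groups overlapped. GPC6 had a log2 fold change of -0.53 (SE 0.062, edgeR adjusted p = 6.63e-08) in H9 and -0.09 (SE 0.089, edgeR adjusted p = 0.567) in H1. Its neighbour on chromosome 13, GPC5, was at most 0.509 CPM in any replicated library and was not tested. As a share of the summed glypican level per kilobase, GPC4 stood at 53.1 to 55.3% in H1 wild type and 61.2 to 63.0% in clone 1-10, and at 56.3 to 59.5% in H9 wild type, 65.5 to 66.1% in 9-1 and 65.8 to 68.2% in 9-D. The total glypican level per kilobase was 177 ± 3.09 in H1 wild type and 172 ± 0.902 in clone 1-10, and 246 ± 9.03 in H9 wild type, 223 ± 11.6 in 9-1 and 245 ± 8.79 in 9-D (SD, n = 3 each).

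**Figure D2:**
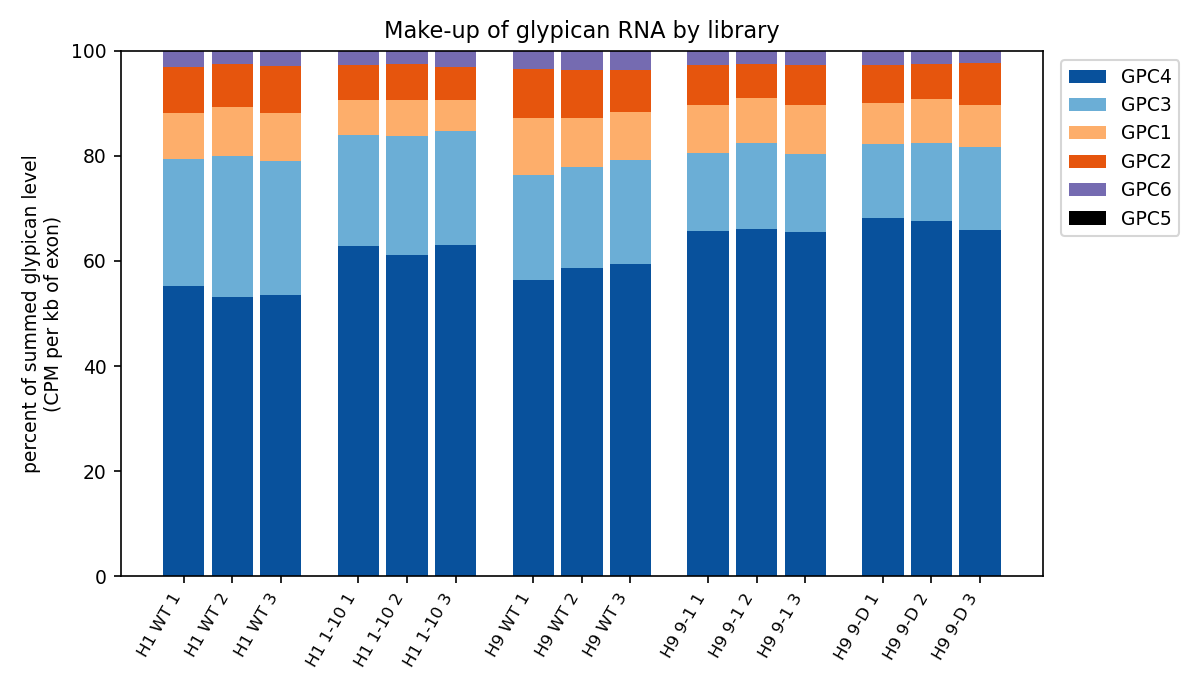
Share of each glypican (y axis, percent of summed CPM per kilobase of exon) in each of the 15 replicated libraries (x axis). The GPC4 segment is 53.1 to 55.3% in H1 wild type and 61.2 to 63.0% in clone 1-10, and 56.3 to 59.5% in H9 wild type against 65.5 to 68.2% in its clones, without overlap.

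SDC1 and SDC3 were called lower in both lines, SDC2 in H1 only and SDC4 in H9 only. In the test of the difference between the lines, neither SDC2 nor SDC4 passed. Syndecans span the membrane and act as co-receptors for growth factors and the matrix. SDC1 stood at 91.2, 94.3 and 89.1 CPM in H1 wild type and 77.5, 84.7 and 72.98 in clone 1-10. In H9 it stood at 119.5, 119.6 and 127 in wild type, 96.00, 94.1 and 100.2 in 9-1 and 104, 104 and 114 in 9-D. All knockout libraries were below wild type. SDC1 had a log2 fold change of -0.22 (SE 0.062, edgeR adjusted p = 0.0183) in H1 and -0.26 (SE 0.055, edgeR adjusted p = 0.000514) in H9. The H1 call was lost without clone 1-10 replicate 1 or 3 or wild-type replicate 2 (edgeR adjusted p = 0.0844, 0.117 and 0.0634). SDC2 stood at 126, 122 and 127 CPM in H1 wild type and 114, 108 and 104 in clone 1-10. The H9 libraries had 146, 179 and 168 in wild type, 134, 164 and 136 in 9-1 and 154, 174 and 162 in 9-D. The H1 groups did not overlap and the H9 groups did. SDC2 had a log2 fold change of -0.20 (SE 0.057, edgeR adjusted p = 0.0198) in H1 and -0.10 (SE 0.068, edgeR adjusted p = 0.316) in H9. That H1 call was lost without clone 1-10 replicate 3 or wild-type replicate 1 or 3 (edgeR adjusted p = 0.105, 0.0662 and 0.1).

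SDC3 stood at 73.8, 71.7 and 68.8 CPM in H1 wild type and 54.95, 60.4 and 61.8 in clone 1-10. H9 wild type had 79.3, 64.8 and 75.3, clone 9-1 had 65.7, 61.8 and 64.3 and clone 9-D 60.8, 63.7 and 61.7. The H1 and 9-D libraries were below wild type and 9-1 overlapped it. SDC3 had a log2 fold change of -0.28 (SE 0.065, edgeR adjusted p = 0.00387) in H1 and -0.22 (SE 0.059, edgeR adjusted p = 0.00523) in H9. The calls were lost without clone 1-10 replicate 1 (edgeR adjusted p = 0.056) and without H9 wild-type replicate 1 (0.083). SDC4 stood at 68.8, 68.9 and 64.6 CPM in H1 wild type and 56.3, 62.5 and 58.3 in clone 1-10. Levels in H9 were 92.3, 107 and 92.5 in wild type, 65.9, 73.1 and 72.8 in 9-1 and 76.4, 74.5 and 73.7 in 9-D. Knockouts were below wild type throughout. SDC4 had a log2 fold change of -0.42 (SE 0.057, edgeR adjusted p = 9.94e-07) in H9 and -0.19 (SE 0.065, edgeR adjusted p = 0.0505) in H1, where it passed only without clone 1-10 replicate 2 (edgeR adjusted p = 0.0131) among the runs that left out 1 library. The summed syndecan level per kilobase was 95.4 ± 1.52 in H1 wild type and 82.3 ± 3.12 in clone 1-10, and 126 ± 6.002 in H9 wild type, 102 ± 4.63 in 9-1 and 111 ± 2.47 in 9-D (SD, n = 3 each).

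Agrin and perlecan, the heparan sulfate proteoglycans of basement membranes, fell in both lines. AGRN stood at 346, 347 and 344 CPM in H1 wild type and 247, 276 and 239 in clone 1-10. Wild-type H9 libraries gave 689, 633 and 667, those of 9-1 gave 479.7, 544 and 505 and those of 9-D 524, 508 and 548. No knockout library reached wild type. AGRN had a log2 fold change of -0.44 (SE 0.052, edgeR adjusted p = 2.16e-07) in H1 and -0.35 (SE 0.048, edgeR adjusted p = 9.84e-07) in H9, and kept its call in all 6 H1 and all 9 H9 runs that left out 1 library. HSPG2 stood at 255, 244 and 268 CPM in H1 wild type and 208, 238 and 216 in clone 1-10. In H9 it stood at 314, 258 and 287 in wild type, 197, 196 and 207 in 9-1 and 213, 188 and 195 in 9-D. The groups did not overlap in either line, by a narrow margin in H1. HSPG2, the perlecan gene, whose promoter stretch is printed above, had a log2 fold change of -0.52 (SE 0.054, edgeR adjusted p = 5.48e-09) in H9 and -0.21 (SE 0.055, edgeR adjusted p = 0.00837) in H1. The H1 call was lost without clone 1-10 replicate 1 (edgeR adjusted p = 0.0928) or wild-type replicate 3 (0.0828). Over all 12 core genes, the summed level was 1679 to 1694 CPM in H1 wild type and 1489 to 1564 in clone 1-10, and 2425 to 2498 in H9 wild type, 1966 to 2161 in 9-1 and 2147 to 2243 in 9-D.

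Fibroblasts and feeder cells also express many of these core proteins. The 11 genes listed as markers of these cells summed to 671 to 704 CPM in H1 wild type and 608 to 737 in clone 1-10. Of 9 tested, 5 were lower in edgeR's test, where 7.25% of all genes were lower. In H9 the 11 genes summed to 927 to 974 in wild type, 815 to 890.3 in 9-1 and 908 to 997 in 9-D. Of 8 tested with both clones in 1 group, 5 were lower and 1 higher, against 15.3% and 14.3% of all genes. Of these 11 genes, DCN was at 0 in all H9 wild-type and 9-D libraries and LUM in all 9-1 libraries, and none was at 0 in all libraries of a replicated H1 group. Markers of trophoblast and amnion summed to 11.3 to 13.7 CPM in H1 wild type and 6.52 to 7.04 in clone 1-10, and those of endoderm overlapped in H1 at 6.98 to 10.8 and 5.52 to 9.44. In H9 the trophoblast and amnion markers summed to 13.1 to 13.6 CPM in wild type, 9.59 to 11.8 in 9-1, all lower, and 10.02 to 13.7 in 9-D. The endoderm markers overlapped in H9, at 7.27 to 7.97, 6.25 to 10.4 and 7.51 to 10.5. Of the 3 tested, 2 were called higher, where 14.3% of all genes were higher. Bulk RNA does not tell which cells the reads of these marker genes came from. The part of such cells in the core protein result was not tested.

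**Figure D3:**
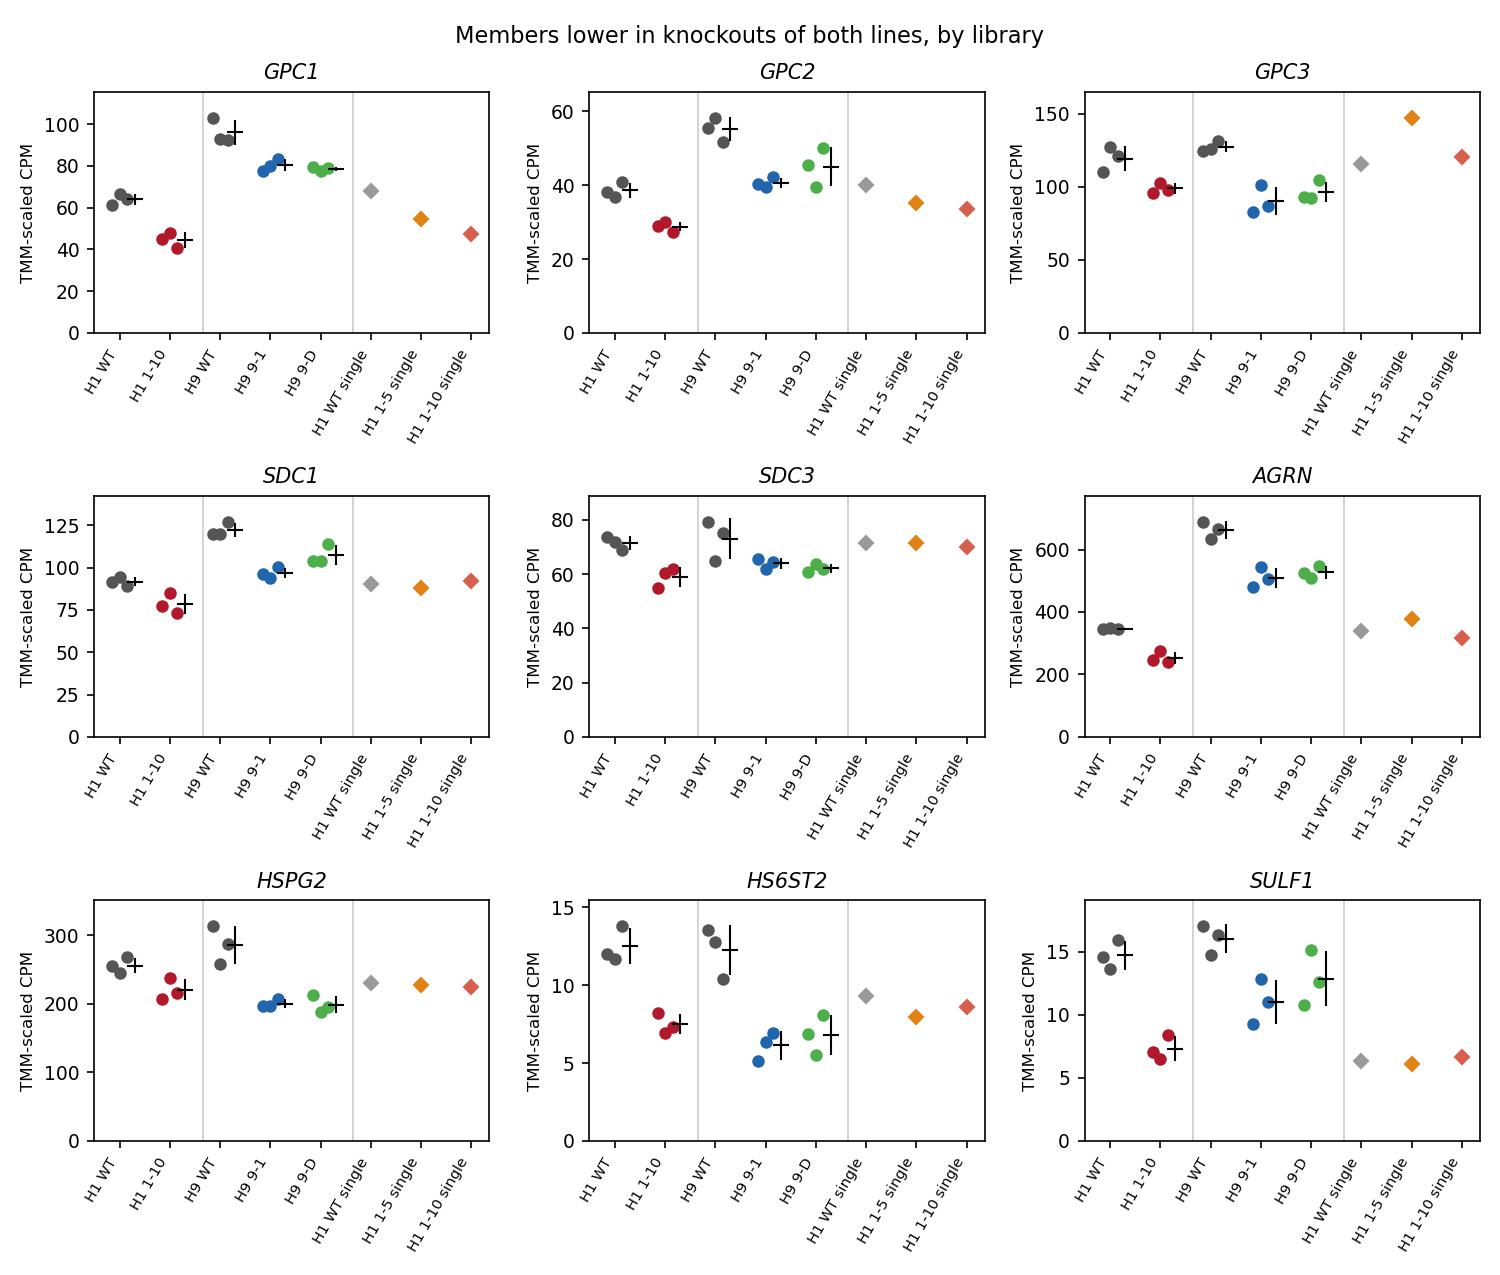
Level of the 9 members lower in both lines (y axis, TMM-scaled CPM from 0) in each library, with the mean ± SD at the right of each replicated group (n = 3) and diamonds for the single H1 libraries, scaled as a separate table. Knockout and wild type do not overlap within the replicated sets except for SULF1 in 9-D and SDC3 in 9-1, and SULF1 is at 6.10 to 6.61 in all 3 single libraries. The 9 were chosen because these same replicated libraries called them, so their separation adds no support.

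The difference between the lines was itself tested, as the mean effect of the H9 clones minus the effect of clone 1-10 on the log2 scale. It passed for 7 of 39 members, 2 higher and 5 lower in H9, or 17.9% against 9.21% of 15802 genes (5.2% higher, 4.01% lower). SULF1 fell less in H9 than in H1, with a difference of 0.60 (SE 0.17, edgeR adjusted p = 0.0171). SULF2, which did not pass in H1 alone, had estimates of opposite sign, with a difference of 0.42 (SE 0.1, edgeR adjusted p = 0.00608). HSPG2 differed by -0.31 (SE 0.081, edgeR adjusted p = 0.00963) and GPC6 by -0.44 (SE 0.11, edgeR adjusted p = 0.00504), both lower in H9. The linker enzymes XYLT2 and B3GAT3 differed by -0.30 (SE 0.093, edgeR adjusted p = 0.0353) and -0.38 (SE 0.12, edgeR adjusted p = 0.0436). EXT2 differed by -0.29 (SE 0.081, edgeR adjusted p = 0.0144). Other members called in 1 line only, among them SDC2, SDC4, GLCE and HS3ST3B1, did not pass and are not shown to differ between the lines. SULF2 and GPC6 kept the call in every run that left out 1 library. B3GAT3 lost it in 11 such runs and XYLT2 in 8 (lowest and highest edgeR adjusted p over the runs 0.0135 to 0.176 for B3GAT3). SULF1 lost it without clone 1-10 replicate 2, H1 wild-type replicate 3 or H9 wild-type replicate 2 (edgeR adjusted p = 0.0737, 0.0624 and 0.0556), HSPG2 without clone 1-10 replicate 2 or H9 wild-type replicate 1 (0.0513 and 0.0581), and EXT2 without H9 wild-type replicate 3 (0.052). H1 and H9 were counted in separate tables and the labels give no batch, so line and batch cannot be told apart. Between the 2 H9 clones, 0 of 39 members passed, against 0.305% of all genes. The 4 with an unadjusted p under 0.05 in edgeR were GPC4, SDC1, SDC2 and HPSE, with log2 differences of 0.16, 0.15, 0.17 and 0.26 (9-D over 9-1), and DESeq2 also called 0.

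**Figure D4:**
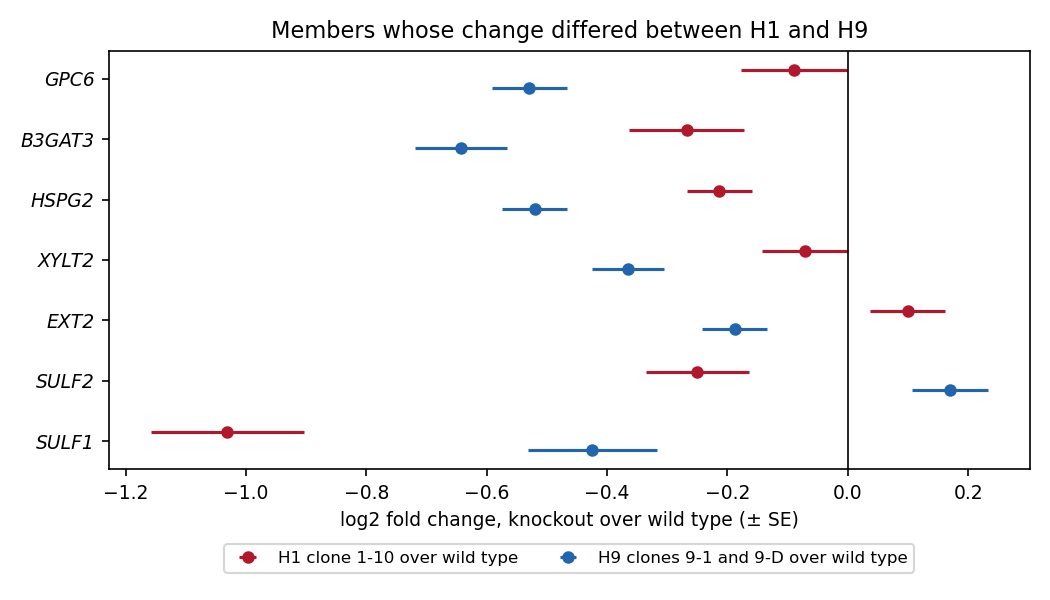
Knockout against wild type as log2 fold change (x axis, ± SE) in H1 clone 1-10 (red) and in the H9 clones together (blue) for the 7 members (y axis) whose effects differed between the lines. SULF1 and SULF2 are the members that lie lower in H1 than in H9, and SULF2 and EXT2 have opposite signs in the 2 lines.

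The separate H1 set had 1 library per genotype, so there is no test, and its intervals cover counting error only. Of 37 members with at least 20 counts in the higher library, 0 differed from wild type by 1.5-fold in clone 1-5 or in clone 1-10, where 5.67% (2.7% higher, 2.97% lower) and 5.36% (1.76% higher, 3.59% lower) of genes did. Of the members called in the replicated H1 set, only SULF1 (-1.03) and HS6ST2 (-0.74) had changed by more than 1.5-fold there. This cut could therefore show few of the replicated changes. Member medians were -0.00 and -0.04 on the log2 scale. SULF1 stood at 6.30, 6.10 and 6.61 CPM in wild type, 1-5 and 1-10, a log2 ratio of 0.07 (95% counting interval -0.40 to 0.54) for clone 1-10. All 3 libraries, wild type included, thus lay near the level of clone 1-10 in the replicated set. The 8 streak markers in these libraries summed to 4.79, 9.53 and 6.99 CPM, below every replicated H1 wild-type library, and their part in the SULF1 level was not tested. HS6ST2 stood at 9.31, 7.93 and 8.57, a log2 ratio of -0.12 (95% counting interval -0.52 to 0.28) in clone 1-10. GPC1 stood at 68.2, 54.6 and 47.6, with -0.52 (95% counting interval -0.67 to -0.37) in clone 1-10 and -0.32 (95% counting interval -0.47 to -0.17) in clone 1-5. GPC1 was thus lower in the homozygous clone by the same amount as in the replicated set, and the intervals of both clones overlapped.

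The log2 ratios in clone 1-10 were -0.26 (95% counting interval -0.45 to -0.07) for GPC2, -0.19 (95% counting interval -0.30 to -0.08) for SDC2 and -0.11 (95% counting interval -0.17 to -0.04) for AGRN. Of the 12 members called in the replicated H1 set, the replicated value lay inside the counting interval of clone 1-10 for GPC1, GPC2 and SDC2 and outside it for the other 9. The intervals leave out the spread between libraries, so this is a description and no test of a difference between the sets. GPC3 stood at 116, 147 and 121 CPM, with 0.34 (95% counting interval 0.24 to 0.45) in clone 1-5 and 0.06 (95% counting interval -0.05 to 0.16) in clone 1-10, and XYLT1 at 58.97, 73.1 and 68.2, with 0.31 (95% counting interval 0.17 to 0.46) and 0.21 (95% counting interval 0.06 to 0.36). XYLT1 in both clones and GPC3 in clone 1-5 lay above wild type, against falls in the replicated H1 set. The GPC3 interval of clone 1-10 reached to both sides of wild type. GLCE stood at 34.8, 28.3 and 23.3, with -0.30 (95% counting interval -0.51 to -0.09) in clone 1-5 and -0.58 (95% counting interval -0.80 to -0.36) in clone 1-10, the largest fall among the 37 members compared in this set and one that crossed 1.5-fold when library totals replaced TMM. Among the other core proteins, the wild type, 1-5 and 1-10 libraries had 40.2, 35.2 and 33.6 CPM of GPC2, 471, 506 and 488 of GPC4, 24.7, 27.5 and 29.2 of GPC6, 90.5, 88.1 and 91.9 of SDC1, 115, 116 and 101 of SDC2, 71.6, 71.5 and 70.04 of SDC3, 54.4, 62.5 and 60.05 of SDC4, 340.2, 377 and 316 of AGRN and 231, 228 and 224 of HSPG2. In the same order, they had 53.03, 50.8 and 51.2 CPM of XYLT2, 29.4, 29.1 and 26.6 of B3GAT3, 50.1, 51.6 and 56.8 of FAM20B and 71.4, 67.8 and 66.7 of EXT2. Of the 3-O-sulfotransferases they had 2.04, 2.36 and 2.40 CPM of HS3ST1, 8.07, 7.55 and 7.67 of HS3ST2, 8.34, 8.54 and 6.76 of HS3ST3A1, 20.6, 17.6 and 16.9 of HS3ST3B1 and 9.40, 10.1 and 7.44 of HS3ST5, and of SULF2 29.5, 29.6 and 29.8.

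**Figure D5:**
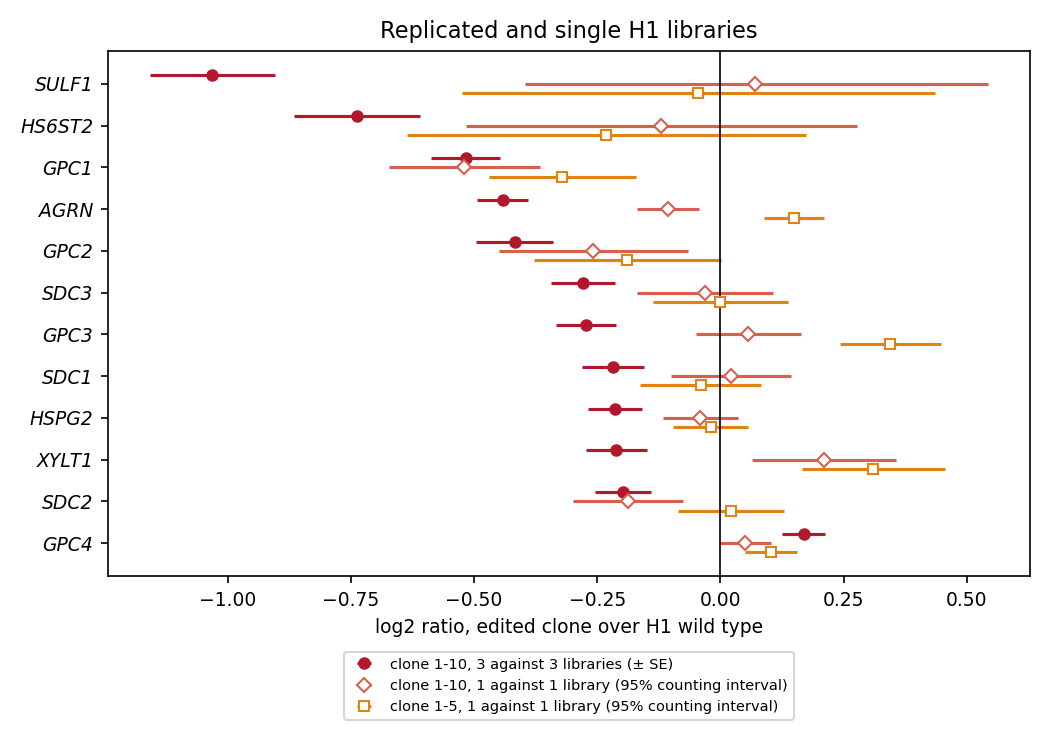
Log2 ratio of edited clone over H1 wild type (x axis) for the 12 members called in H1 (y axis), in the replicated set (filled circles, ± SE, 3 against 3 libraries) and in the single libraries of clone 1-10 (diamonds) and clone 1-5 (squares, both with 95% counting intervals). GPC1 is at -0.52 in both sets of clone 1-10, while SULF1 is at -1.03 in the replicated set and 0.07 in the single one.

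Genes around the pathway gave 5 calls of 46 tested in H1 (10.9%, near the 12.3% of all genes) and 19 of 46 in H9 (41.3%, against 29.7%). Of 15 genes of chondroitin and dermatan sulfate synthesis tested, which share the linker, 2 were lower in H1, DSEL at -0.45 (SE 0.079, edgeR adjusted p = 0.000179) and CHST11 at -0.38 (SE 0.11, edgeR adjusted p = 0.0161). In H9, 6 were lower and 0 higher, led by CHSY3 at -0.55 (SE 0.17, edgeR adjusted p = 0.0163) and CHST7 at -0.45 (SE 0.082, edgeR adjusted p = 7.77e-05). Of 16 genes listed under supply of sugar nucleotides and sulfate, PAPSS2, which makes the sulfate donor, was the 1 call in H1, at -0.33 (SE 0.081, edgeR adjusted p = 0.00633). In H9, 4 rose and 3 fell, led by SLC35A2, the UDP-galactose transporter, at 0.91 (SE 0.063, edgeR adjusted p = 7.97e-13) and PXYLP1 at -0.52 (SE 0.073, edgeR adjusted p = 1.48e-06). PXYLP1 stands in this list but supplies neither, as it removes the linker phosphate that FAM20B adds. PAPSS2 also fell in H9, at -0.31 (SE 0.069, edgeR adjusted p = 0.000712). Of 8 lysosomal enzymes that break heparan sulfate down, IDS fell in H1, at -0.21 (SE 0.066, edgeR adjusted p = 0.0296), and among those called in H9 SGSH fell, at -0.28 (SE 0.078, edgeR adjusted p = 0.00666). Of 7 other proteins that can carry the chain, TGFBR3 fell in H1, at -0.46 (SE 0.14, edgeR adjusted p = 0.0296), while in H9 3 rose and 1 fell, led by NRP1 at 0.86 (SE 0.11, edgeR adjusted p = 4.25e-07) and SPOCK3 at 0.76 (SE 0.27, edgeR adjusted p = 0.0347).

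In the authors' deposited tables, made with DESeq2, 12 members had an adjusted p under 0.05 in H1, 1 higher and 11 lower, and all 12 were the members called here. The authors' deposited table for H9 gave 19 members, 2 higher and 17 lower, and these were among the 21 called here. HS3ST1 and HS3ST2 were the other 2. How many of all genes those deposited tables called was not counted, so these member counts are not set against it. Both analyses use the same libraries, so their agreement is not independent.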

How the data were processed

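Per the submitters' processing notes, the authors aligned reads with STAR to hg19, counted them with featureCounts and compared groups with DESeq2; versions, strand setting and annotation are not given in the sources used here. The deposited values are whole read counts per gene symbol, and the authors' deposited tables give log2 fold changes and adjusted p-values. Per the labels, RNA was extracted with TRIzol, enriched for polyadenylated RNA and made into libraries with a NEBNext Ultra II kit.

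Counts were tested with edgeR 4.0.16 (R 4.3.3): TMM scaling, filterByExpr by group, and the quasi-likelihood F test with Benjamini-Hochberg adjustment over all genes, called at an adjusted p under 0.05. H1 and H9 were fitted separately, and the difference between lines was tested in 1 model over 15 libraries. SE is the absolute log2 fold change over the square root of F. Single libraries were compared by ratio with exact 95% binomial intervals, which cover counting error only. Levels per kilobase use merged exon lengths of GENCODE release 29 (GRCh38), not the build used for counting. Gene names, neighbours and promoter windows come from RefSeq GRCh38.p14. Tests were checked on simulated counts. No 2 libraries of a group agreed within sampling noise.

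The members and lists were chosen with earlier results of these data known. Values are given for every member called in H1, 9-1, 9-D or both H9 clones together, and for HS3ST1 and HS3ST3A1; of related lists, the 2 called genes of largest absolute log2 fold change. Alternatives were DESeq2 1.42.0, other scaling, no filter, a replicate block, other models and leaving out each library. Of these, summed levels by step under other scalings were added after seeing the data. One gene of the related lists is not reported here.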

Additional observations from a re-analysis of the deposited data

Results flagged for a closer look

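For 7 members the change in H9 differed from that in H1 in a test of the difference itself (the quasi-likelihood test of edgeR, adjusted by Benjamini-Hochberg). The difference in log2 fold change, H9 minus H1, was 0.602 for SULF1 (adjusted p = 0.0171) and 0.415 for SULF2 (adjusted p = 0.00608). It was -0.442 for GPC6 (adjusted p = 0.00504), -0.309 for HSPG2 (adjusted p = 0.00963), -0.379 for B3GAT3 (adjusted p = 0.0436), -0.296 for XYLT2 (adjusted p = 0.0353) and -0.291 for EXT2 (adjusted p = 0.0144). SULF1 also had different levels in the 2 H1 wild-type sets, 6.30 CPM in the single library and 13.6 to 15.9 CPM in the replicated ones.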

How the results depend on the processing

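Leaving out 1 library at a time gave 8 to 15 members called in H1 (12 with all libraries), 18 to 21 in H9 together (21), 16 to 19 in 9-1 (18), 16 to 19 in 9-D (19) and 0 to 0 between the H9 clones (0). For the difference between lines (7) it gave 4 to 8, with 4 without clone 1-10 replicate 2 or without H1 wild-type replicate 3, and 3 without both H1 libraries numbered 2. DESeq2 gave 12, 19, 15, 17, 0 and 6 in the same order, and over all genes in H1 it called 1210 against 1827. Except for the H1 runs with DESeq2 and with a replicate block, the all-gene counts of these runs are not given here. Member counts of the other runs are therefore not set against the call rate over all genes. Single gene values were followed for 16 genes in H1, 22 in H9 together and 8 for the difference between lines. These were the called members and some that were not called. The outcome, called or not called, stayed the same for 166 of 192 values in H1, 308 of 330 in H9 together and 125 of 160 for the difference. In the same order, a call was lost in 15, 21 and 30 values and gained in 11, 0 and 5. HS3ST3A1 in H9 ranged from -0.03757 without H9 wild-type replicate 1, a change of sign, to 0.1698 without replicate 3. With the replicate number as a block, 16, 21, 19, 19, 0 and 9 members were called, and 2929 genes in H1. B3GAT3, SULF2, SDC4 and B3GALT6 joined the 12 H1 calls. Deviations of same-numbered libraries correlated by 0.0357 to 0.119 in H1 and -0.0308 to 0.0633 in H9. Differently numbered libraries correlated by -0.107 to 0.0586 in H1 and -0.0715 to 0.0502 in H9. These ranges overlapped and the labels name no shared source, so the numbers were not taken as pairs. Whether same-numbered H1 libraries share a source was not tested, and the H1 calls depend on this choice. With library totals in place of TMM, 1 member, GLCE, passed 1.5-fold in the single library of clone 1-10 (0 with TMM). The log2 ratio of summed chain levels in H1 turned from 0.032 to -0.00398. Those of the chain in 9-1 (-0.128) and, in 9-D, of chain (-0.109), core (-0.203), linker (-0.243) and sulfation (-0.0968) moved by more than 1 SD between libraries. Without scaling, the H1 calls over all genes split 437 higher and 1376 lower, against 747 and 1080. Low counts limit HS3ST1, EXTL1 and NDST3.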
